A study of Mus musculus with 6 samples.

Results

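The genes described here code for the mitochondrial respiratory chain and ATP synthase. They are every entry of a mouse gene count table whose symbol starts with Ndufa, Ndufb, Ndufc, Ndufs, Ndufv, Uqcr, Cox4 to Cox8, Atp5, mt-Nd, mt-Co, mt-Cytb or mt-Atp, plus Sdha, Sdhb, Sdhc and Sdhd. Chosen by symbol alone, they number 105 of 23791 named entries, of which 92 are nuclear and 13 lie on the mitochondrial genome (called mt genes below). The nuclear set holds 38 subunit genes of complex I, 7 of its assembly factors (Ndufaf), 4 genes of complex II, 8 of complex III, 16 of complex IV, 17 with an Atp5 symbol, counted as complex V, and 2 Atp5l pseudogenes. One of the 17, Atp5sl, is called Dmac2 in the annotation, a complex I assembly factor, and was counted by its symbol. The 38 include Ndufa4, now placed in complex IV, and its relative Ndufa4l2, both also counted by symbol.

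The respiratory chain passes electrons from NADH and succinate to oxygen through complexes I to IV and stores the energy as a proton gradient, which complex V uses to make ATP. Complexes I, III, IV and V are built from subunits of both genomes, while complex II is wholly nuclear. The mt genes are copied by a mitochondrial RNA polymerase as long transcripts from both strands and are cut apart afterwards. The nuclear genes are transcribed one by one, many of them under the factors NRF1, GABP and YY1.

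RNA was sequenced in 6 libraries of the mouse prostate cancer line RM1, strain C57BL/6. Bone (1 library) and lung (1 library) are RM1536 cells from the femur and the lung of the same mouse, taken 16 days after cells stained with the dye PKH26 were injected into the heart and sorted as PKH-negative, that is, after dilution of the dye by division. RM1536 (libraries a and b) is RM1 that carries luc2, a luciferase, and eCFP, a fluorescent protein, pooled from clones 5, 3 and 6, and kept in culture. RM1 (libraries a and b) is the unlabelled line in culture. Cells of all 4 groups were sorted and then grown in DMEM with 5% FBS to 85% of a T75 flask, so bone and lung are cultures made from recovered cells. Below, culture libraries means the 4 of RM1536 and RM1, although the cells of bone and lung were cultured too. Bone and lung have no replicate and come from 1 mouse. Nothing in the labels says whether a and b are separate cultures, so p-values measure only the spread between these libraries, which may be technical.

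Library totals ran between 22763835 and 30303566 counts. Levels are counts per 1e6 counts after TMM scaling (CPM), and levels of different genes are compared only per kb of exon. The exon length joins all annotated exons of a gene and can exceed its longest coding transcript. It was 4.24 kb against 1916 bases for Atp5b, and 0.702 kb against 571 bases for Cox6a1. Rankings of nuclear genes per kb depend on this choice of length. Of the prostate and epithelial markers, Krt8 and Krt18 were present in every library, while the prostate factor Hoxb13 and the basal keratin Krt5 were at 0 in all 6. Of 9 leukocyte markers in the table, 7 stayed under 1 CPM in every library. The summed CPM of the leukocyte list was 23.7 in bone and 24.3 in lung, against 11.5 and 4.27 in RM1536 a and b, and 9.82 and 43.7 in RM1 a and b, most of it from Cd68, which gave 43.5 CPM in RM1 b. The myeloid lysozyme gene Lyz2 had 61 counts in bone and 73 in lung and 0 in the 4 culture libraries (edgeR adjusted p = 0.13 and 0.269), and Cd74 had 14 in bone and 19 in lung and between 1 and 3 in the others. The pan-leukocyte gene Ptprc had 0 counts in bone and lung. The osteoblast and osteoclast list summed to 79.2 CPM in bone and 68.9 in lung, against 51.5 and 58.8 in RM1536 and 48.0 and 49.7 in RM1, nearly all of it Runx2. Summed markers of erythroid cells, lung epithelium and endothelium stayed under 2 CPM in every library.

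The 13 mt genes together took a larger share of the counts in bone and lung than in RM1536. That share was also larger in RM1536 than in RM1, while the share of the 92 nuclear genes differed less between groups. The mt share was 1.68% in bone and 1.78% in lung, against 1.13% and 1.06% in RM1536 a and b, and 0.838% and 0.482% in RM1 a and b. The nuclear share was 0.944% in bone and 0.902% in lung, against 1.08% and 1.05% in RM1536 and 0.913% and 0.850% in RM1. The 95% Wilson interval of the mt share was 1.775% to 1.785% in lung and 0.479% to 0.484% in RM1 b, and such intervals cover counting error only. Most of the mt count of every library came from mt-Co1, mt-Cytb and mt-Nd1. The 5 mt genes almost wholly repeated in other annotated genes, described below, had at most 743 counts in any library. The mt share and the mt to nuclear ratio are thus of reads as counted, and may not measure all mt RNA. In bulk RNA, a different mix of cells and a different amount of RNA per cell cannot be told apart.

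The ratio of mt to nuclear counts, which does not depend on library scaling, was 1.78 in bone and 1.97 in lung. It was 1.05 and 1.01 in RM1536 a and b, and 0.918 and 0.567 in RM1 a and b. No group overlapped another, but the gap between RM1 a and b was larger than that between RM1 a and either RM1536 library. On the log2 scale the ratio was 0.52 higher in RM1536, with means of 0.04 ± 0.03 in RM1536 and -0.47 ± 0.49 in RM1 (SD, n = 2 each). The exact two-sided permutation p was 0.333, which is the smallest that 2 against 2 libraries can give. The difference was 0.17 without RM1 b and 0.86 without RM1 a. Bone stood 0.79 and lung 0.94 above the RM1536 mean, with no test since each is 1 library. The ratio in bone was 0.15 lower than in lung. The leukocyte sum, Lyz2 and Cd74 were also higher in bone and lung than in RM1536, as was the osteoblast and osteoclast sum, and their part in the ratio was not tested.

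**Figure D1:**
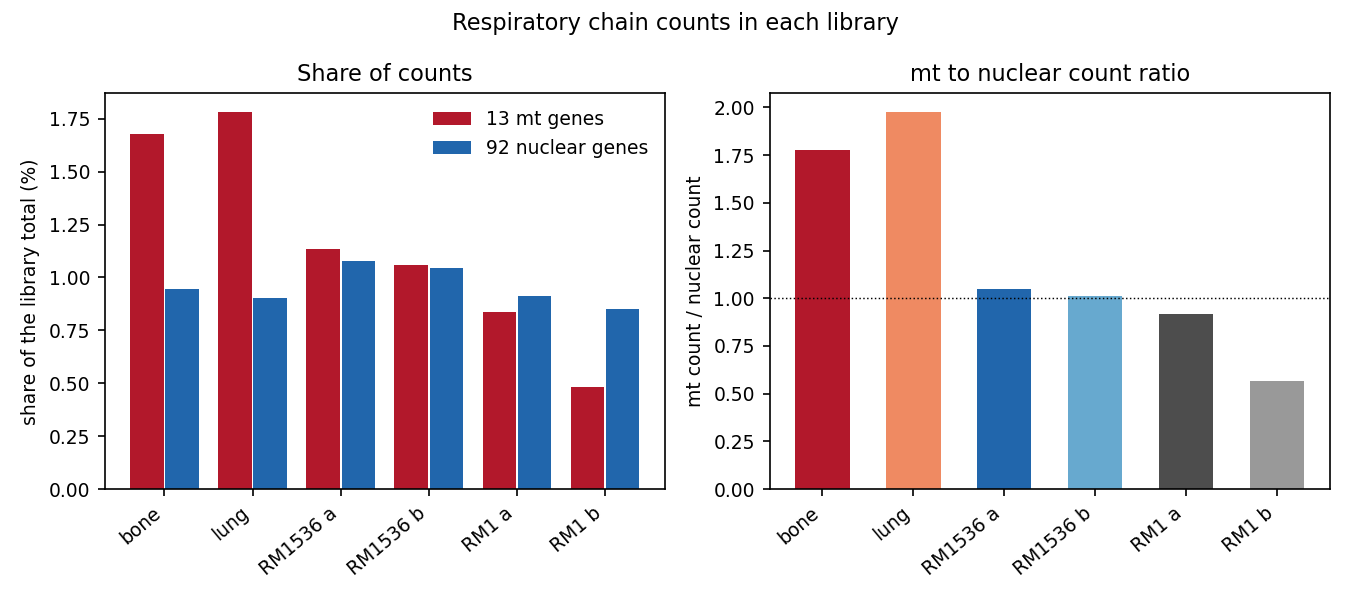
Left, the share of each library's counts taken by the 13 mt genes and the 92 nuclear genes; right, the mt count over the nuclear count, with a dotted line at 1. Each bar is 1 library, so there are no error bars. The mt share is 1.78% in lung and 0.482% in RM1 b, while the nuclear share stays between 0.850% and 1.08%. Most of the mt count is from mt-Co1, mt-Cytb and mt-Nd1.

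Each gene was tested with edgeR's quasi-likelihood test in 1 model over the 6 libraries, with Benjamini-Hochberg adjustment over 13832 genes and a call at an adjusted p under 0.05. Of the 105 genes, 99 had enough counts to be tested, 87 nuclear and 12 mt. The other 6, Cox4i2, Cox6b2, Cox8b, mt-Nd4l, Atp5l-ps1 and Atp5l2-ps, had at most 3 counts in every library. In RM1536 against RM1 none of the 99 was called, where 5.64% of all genes tested were. At an unadjusted p under 0.05, 13 of the 99 were higher and 4 lower in RM1536, against 10.4% and 12.5% of all genes. DESeq2 called 5 of them, all higher in RM1536 (mt-Cytb, mt-Nd1, mt-Nd2, Ndufa2 and Ndufa8), where it called 10.6% of all genes, and limma-voom called 0, against 6.2% of all genes.

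Bone against RM1536 had 0 of the 99 called (0.0145% of all genes), with 1 higher and 2 lower at an unadjusted p under 0.05 by edgeR, where 5.18% and 4.74% of all genes were. Lung against RM1536 had 0 called (0.0% of all genes), with 3 higher and 2 lower at that unadjusted p (6.46% and 7.29% of all genes). Bone against lung had 0 called (0.00723% of all genes), with 1 higher and 1 lower (3.78% and 4.68%). DESeq2 also called 0 in these 3 comparisons, against 2.74%, 2.54% and 1.58% of all genes, and limma-voom called 0, against 0.0% of all genes in each. These 3 rest on single libraries, which were taken to vary like the culture pairs, and bone and lung share the RM1536 libraries as their control. Without a filter on low counts, edgeR called 10 of 104 genes in RM1536 against RM1 (9 higher, 1 lower), where it called 10.8% of all genes. It called 1 in bone against RM1536 (3.89% of all genes), 3 in lung against RM1536 (5.88%) and 1 in bone against lung (3.41%), so none of these counts exceeded the share of all genes.

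The median log2 fold change in RM1536 against RM1 was 0.88 for the 12 mt genes, 0.27 for the 87 nuclear genes and 0.02 for all genes. In bone against RM1536 these medians were 0.54, -0.06 and -0.03, and in lung against RM1536 they were 0.65, -0.06 and -0.03. Without RM1536 a the nuclear median was 0.0037 in bone and 0.054 in lung, so its sign rests on that library. In bone against lung they were -0.21, -0.00 and 0.02. RM1 a and b themselves differed in the mt genes, with RM1 a above RM1 b in 11 of 12 (51.6% of all genes) and a median log2 difference of 0.71. The nuclear genes shifted too, with RM1 a above RM1 b in 65 of 87 and a median log2 difference of 0.15. RM1536 a lay above RM1536 b in 61 of 87 nuclear genes (6881 of all 13832 genes), with a median of 0.15. Over all genes these medians were 0.01 in RM1 and 0.0 in RM1536. In RM1536 against RM1, the median log2 fold change of the mt genes was 0.52 without RM1 b and 1.29 without RM1 a.

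**Figure D2:**
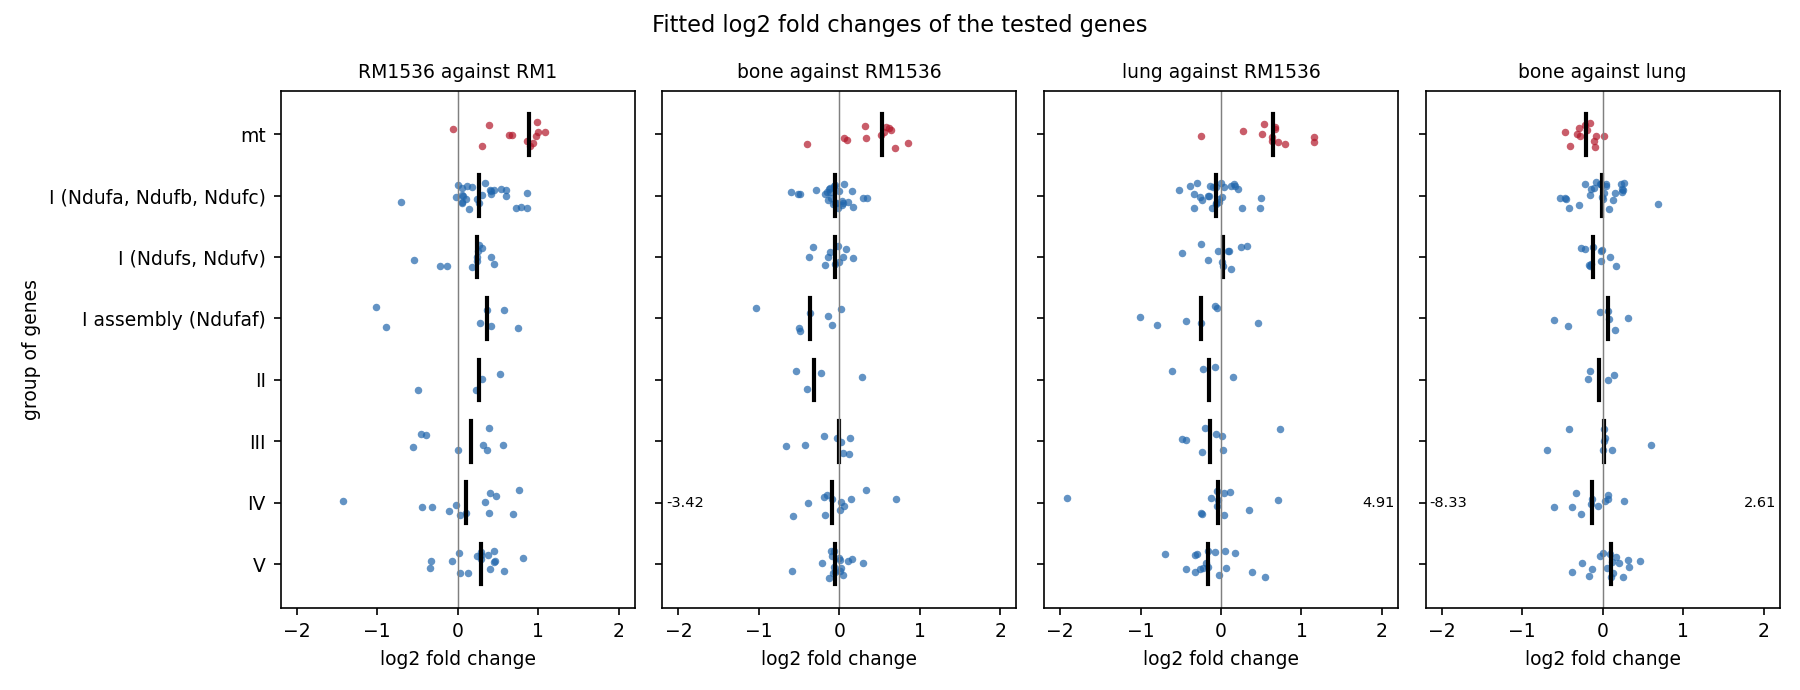
Fitted log2 fold changes of the 99 tested genes in the 4 comparisons, with 1 point per gene, mt genes in red, nuclear genes in blue and a black bar at each group's median. Values beyond the axis are printed at its edge; the mt median lies at 0.88 in RM1536 against RM1, 0.54 in bone and 0.65 in lung against RM1536, and the nuclear medians of the last 3 comparisons lie near 0.

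By level per kb, the mt genes split into a high and a low class. Averaged over 6 libraries, mt-Co1, the catalytic subunit of complex IV, had 3040 CPM per kb. A haem-bearing subunit of complex III, mt-Cytb, had 2322, and mt-Nd1, a membrane subunit of complex I, had 1874. These 3 held between 75.6% and 81.2% of the mt count of every library. Next came the complex I genes mt-Nd2 (789 CPM per kb), mt-Nd4 (489), mt-Nd5 (472) and mt-Nd6 (342), the last being the gene on the opposite strand. Much lower were mt-Nd3 (52.6), the ATP synthase genes mt-Atp8 (13.8) and mt-Atp6 (12.2), the complex IV genes mt-Co2 (2.18) and mt-Co3 (1.14), and mt-Nd4l, which had 1 count in lung and 0 elsewhere.

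Part of the mitochondrial genome also lies, nearly letter for letter, in a run of annotated pseudogenes on chromosome 1, and a read from such a stretch has more than 1 place to align. The 5 mt genes with over 95% of their 50-base windows repeated in another annotated gene were mt-Co2 (100%), mt-Co3 (99.9%), mt-Atp6 (99.5%), mt-Nd4l (98.8%) and mt-Nd3 (98.0%), and they had between 0.022 and 52.6 CPM per kb. The other 8 had between 13.8 and 3040 CPM per kb, with shares of 62.2% for mt-Nd4, 51.1% for mt-Co1, 8.19% for mt-Nd2, 7.61% for mt-Nd5 and 0 for mt-Cytb, mt-Nd1, mt-Nd6 and mt-Atp8. Of these, mt-Atp8 was low with no such window; the chromosome 1 stretch between the mt-Atp6 and mt-Co2 copies was not assessed. How reads with several places were counted is not given in the sources used here, so levels are not compared between the classes as expression. The order within the high class has the same limit, since mt-Nd4 and mt-Co1 are repeated in part.

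These stretches show how close the copies are: the first 100 bases of mt-Nd3 (GRCm38 chrM:9459-9558, plus strand) with its copy Gm28438 (chr1:24613020-24613119, minus strand), and bases 201 to 300 of mt-Co2 (chrM:7213-7312, plus strand) with its copy Gm28661 (chr1:24615266-24615365, minus strand). Capitals mark the base that differs, T3C, counted from 1 at the 5′ end of mt-Nd3, with the mt base first.
mt-Nd3: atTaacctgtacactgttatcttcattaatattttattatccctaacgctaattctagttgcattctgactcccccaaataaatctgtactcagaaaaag
Gm28438: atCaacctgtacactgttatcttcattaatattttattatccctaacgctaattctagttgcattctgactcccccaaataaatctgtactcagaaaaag
mt-Co2: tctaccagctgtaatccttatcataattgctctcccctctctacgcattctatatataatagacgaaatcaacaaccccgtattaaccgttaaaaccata
Gm28661: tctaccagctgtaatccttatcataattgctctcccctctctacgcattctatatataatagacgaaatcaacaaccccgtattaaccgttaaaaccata

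T3C was the single difference over 345 bases of the mt-Nd3 copy. The copies of mt-Co2 (681 bases), mt-Atp6 (678 bases, Gm10925), mt-Co3 (783 bases, Gm28437), mt-Nd4l (294 bases, Gm10222) and the first 876 bases of mt-Nd4 (Gm28439) had no difference from the mt gene. Gm29216, the copy of the last 492 bases of mt-Co1, had 6 differences and between 8 and 17 counts in any library. Gm28438, with its single difference, was listed with 145 counts in bone, 108 in lung, 133 and 146 in RM1536 and 158 and 70 in RM1. The mt-Nd3 counts were 537 in bone, 743 in lung, 576 and 453 in RM1536 and 323 and 237 in RM1. The perfect copies had between 0 and 25 counts in any library.

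**Figure D3:**
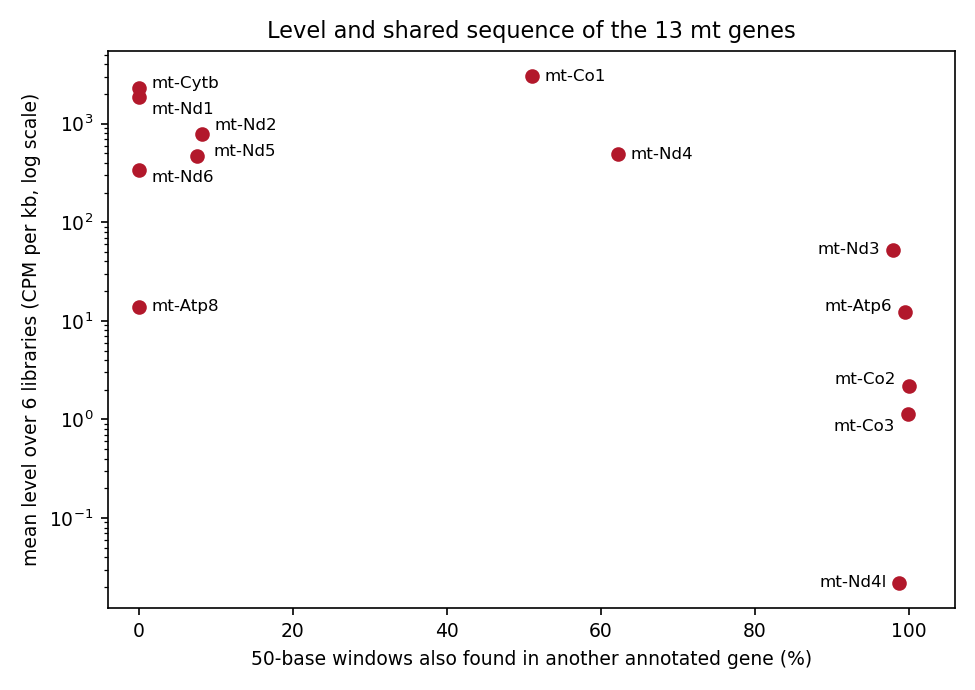
Mean level over the 6 libraries (CPM per kb, log scale) of each of the 13 mt genes against the percentage of its 50-base windows that occur in another annotated gene. The 5 genes at 98.0% or more lie at 52.6 CPM per kb or lower, and mt-Atp8 lies low at 0%.

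Of the genes of the high class, mt-Cytb had 4096 CPM in bone and 5035 in lung, against 2344 and 2195 in RM1536 a and b, and 1392 and 876 in RM1 a and b. Bone and lung lay above both RM1536 libraries, and these above both RM1 libraries. The fitted log2 fold change was 1.00 ± 0.28 (SE, n = 2 and 2) in RM1536 against RM1, 0.85 ± 0.33 in bone and 1.15 ± 0.33 in lung against RM1536, with edgeR adjusted p of 0.104, 0.479 and 0.317.

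The complex I gene mt-Nd2 had 1151 CPM in bone and 1395 in lung, against 883 and 725 in RM1536 and 475 and 283 in RM1. RM1536 against RM1 gave a log2 fold change of 1.09 ± 0.30 (edgeR adjusted p = 0.102). The mt-Nd1 gene had 2730 CPM in bone and 2707 in lung, against 1868 and 1623 in RM1536 and 1161 and 669 in RM1, a log2 fold change of 0.93 ± 0.31 in RM1536 against RM1 (edgeR adjusted p = 0.148). For both genes, bone and lung stood above RM1536, and RM1536 above RM1, with no overlap.

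For mt-Nd4 the values were 953 CPM in bone and 1314 in lung, against 694 and 486 in RM1536 and 383 and 212 in RM1. The log2 fold change was 0.99 ± 0.35 in RM1536 against RM1 (edgeR adjusted p = 0.166) and 1.15 ± 0.41 in lung against RM1536 (0.333). The mt-Nd5 gene had 1251 CPM in bone and 1326 in lung, against 897 and 774 in RM1536 and 618 and 303 in RM1. The light-strand gene mt-Nd6 had 253 CPM in bone and 270 in lung, against 180.0 and 151 in RM1536 and 144 and 68.4 in RM1, so that RM1536 b and RM1 a nearly met. The 3 genes kept the order of mt-Cytb, and their edgeR adjusted p ran between 0.166 and 0.361 in RM1536 against RM1.

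The highest per kb, mt-Co1, differed in its order. It had 6289 CPM in bone and 6800 in lung, against 4159 and 4409 in RM1536 and 4254 and 2269 in RM1, so RM1 a lay between the RM1536 libraries. Its log2 fold change was 0.39 ± 0.33 in RM1536 against RM1 (edgeR adjusted p = 0.534), 0.55 ± 0.40 in bone and 0.67 ± 0.40 in lung against RM1536. Its share of the mt count was 37.5% in bone and 36.0% in lung, against 37.6% and 42.4% in RM1536 and 50.4% and 48.3% in RM1. The share of mt-Cytb ran the other way, at 24.4% in bone and 26.6% in lung, against 21.2% and 21.1% in RM1536 and 16.5% and 18.7% in RM1.

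In the low class, mt-Nd3 had 23.6 CPM in bone and 29.3 in lung, against 23.2 and 14.7 in RM1536 and 10.8 and 8.39 in RM1 (log2 fold change in RM1536 against RM1 0.98 ± 0.31, edgeR adjusted p = 0.132). ATP synthase subunit gene mt-Atp6 had 9.31 CPM in bone and 12.3 in lung, against 10.6 and 6.79 in RM1536 and 6.04 and 4.81 in RM1, and mt-Atp8 stayed between 1.91 and 3.87 CPM. The complex IV gene mt-Co2 had 1.45 CPM in bone and 1.62 in lung, against 1.93 and 1.91 in RM1536 and 1.34 and 0.708 in RM1, and so was the mt gene with bone and lung below RM1536. The values of mt-Co3 lay between 0.615 and 1.09 CPM with all groups overlapping.

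Counted gene by gene, both RM1536 libraries stood above both RM1 libraries for 10 of the 12 mt genes and 48 of the 87 nuclear genes, where 27.2% of all genes did. The reverse held for 0 mt genes and 10 nuclear genes (26.9% of all genes). Bone stood above both RM1536 libraries for 9 mt and 16 nuclear genes (33.6% of all genes) and below both for 1 mt and 41 nuclear genes (35.1%). Lung stood above both for 10 mt and 22 nuclear genes (37.6%) and below both for 1 mt and 40 nuclear genes (39.2%).

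**Figure D4:**
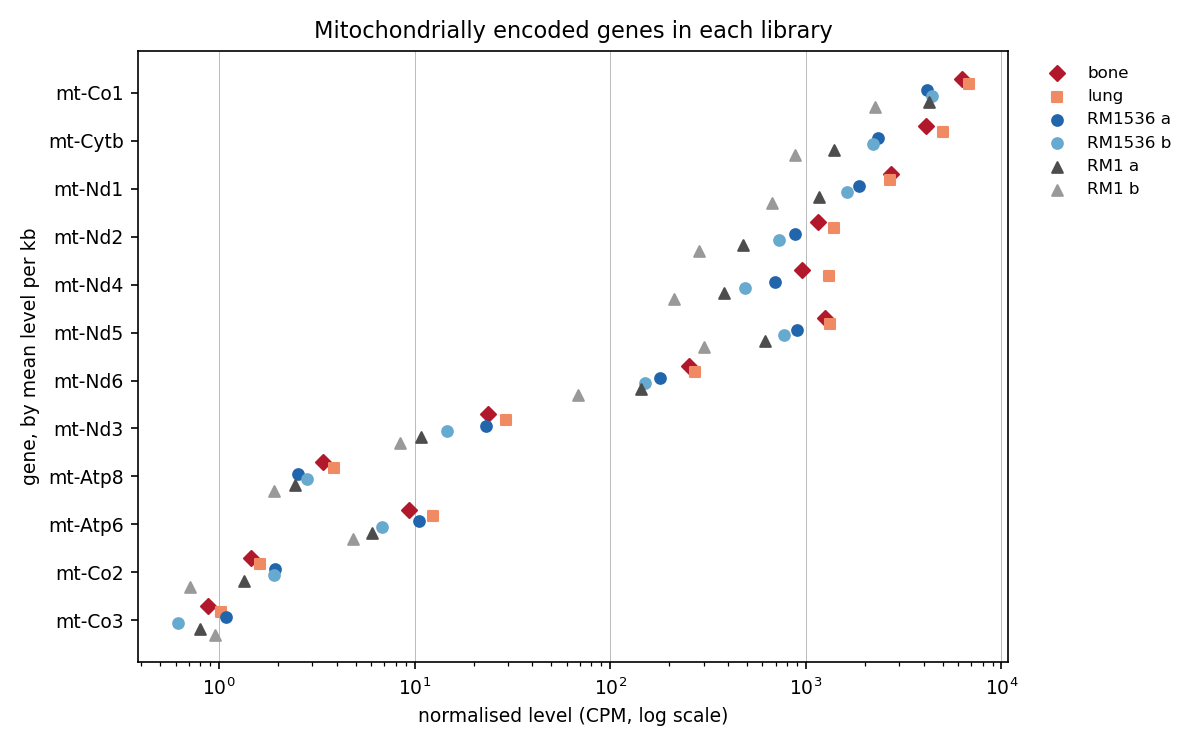
Level in each library (CPM, log scale) of the 12 tested mt genes, from the highest mean level per kb at the top to the lowest. Diamonds and squares are bone and lung, circles RM1536 and triangles RM1; bone and lung lie to the right of RM1536 for 9 genes, with 4096 and 5035 CPM for mt-Cytb against 2344 and 2195.

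Complex I is the entry point for electrons from NADH. Summed over the 27 Ndufa, Ndufb and Ndufc genes, mostly accessory subunits, the level was 1508 CPM in bone and 1566 in lung, against 1667 and 1500.0 in RM1536 and 1305 and 1177 in RM1. In RM1536 against RM1 25 of the 27 had a positive log2 fold change (51.4% of all genes did), with a median of 0.27, 4 of them at an unadjusted p under 0.05, and 0 were called by edgeR. The gene nearest to a call was Ndufa2 (chr18:36742332-36744557, GRCm38), an accessory subunit gene and the highest of its group per kb. It had 84.9 CPM in bone and 116 in lung, against 137 and 120 in RM1536 and 73.7 and 67.8 in RM1, so RM1536 stood above the other 4 libraries. For Ndufa2 the log2 fold change was 0.86 ± 0.20 in RM1536 against RM1 (edgeR adjusted p = 0.0655) and -0.60 ± 0.25 in bone against RM1536 (0.508).

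The accessory subunit gene Ndufa8 had 69.1 CPM in bone and 70.8 in lung, against 76.2 and 77.1 in RM1536 and 43.2 and 49.1 in RM1, with a log2 fold change of 0.73 ± 0.20 in RM1536 against RM1 (edgeR adjusted p = 0.0929). Ndufb8, an accessory subunit of the membrane arm, had 46.0 CPM in bone and 38.5 in lung, against 50.6 and 46.9 in RM1536 and 34.6 and 22.0 in RM1. For both, RM1536 lay above RM1 with no overlap and bone and lung lay below RM1536. Ndufa1, the other gene named for its level, had between 37.9 and 59.6 CPM.

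The 11 Ndufs and Ndufv genes include the core subunits that carry the flavin and the iron-sulfur clusters. Their summed level was 812 CPM in bone and 879 in lung, against 873 and 848 in RM1536 and 780 and 739 in RM1. Ndufv1, the subunit that binds NADH, had 101 CPM in bone and 116 in lung, against 107 and 111 in RM1536 and 76.9 and 82.6 in RM1. Ndufs5 stayed between 40.2 and 57.7 CPM.

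Of these 11 genes, 8 had a positive log2 fold change in RM1536 against RM1, where 51.4% of all genes did, and the median was 0.24. Ndufs4, Ndufs6 and Ndufv3 had a negative one. Ndufs4 is an accessory subunit whose loss in mice gives a Leigh-like disease. It had 33.8 CPM in bone and 36.7 in lung, against 47.3 and 40.2 in RM1536 and 62.8 and 64.7 in RM1. For Ndufs4 the log2 fold change was -0.54 ± 0.20 in RM1536 against RM1 (edgeR adjusted p = 0.185) and -0.37 ± 0.25 in bone and -0.25 ± 0.25 in lung against RM1536. No library of 1 group overlapped another group.

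The 7 Ndufaf genes code for factors that help complex I assemble and were the least abundant group, with a median of 5.25 CPM per kb. They differed in both directions. Ndufaf6 had 1.89 CPM in bone and 1.93 in lung, against 3.50 and 4.27 in RM1536 and 7.48 and 8.28 in RM1. For Ndufaf6 the log2 fold change was -1.02 ± 0.32 in RM1536 against RM1, -1.04 ± 0.42 in bone and -1.01 ± 0.42 in lung against RM1536, with edgeR adjusted p of 0.134, 0.503 and 0.370.

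Ndufaf4 had 5.71 CPM in bone and 5.45 in lung, against 6.11 and 8.61 in RM1536 and 14.1 and 13.1 in RM1 (log2 fold change -0.89 ± 0.30 in RM1536 against RM1, edgeR adjusted p = 0.149). Ndufaf7, a methyltransferase, had 27.4 CPM in bone and 24.6 in lung, against 29.8 and 28.8 in RM1536 and 18.6 and 16.4 in RM1 (0.75 ± 0.21, 0.107). RM1536 thus lay below RM1 for Ndufaf4 and Ndufaf6 and above it for Ndufaf7, with no overlap. Ndufaf2 was lower in lung, at 15.7 CPM, than in RM1536, at 23.7 and 30.7 CPM (log2 fold change -0.80 ± 0.30, edgeR adjusted p = 0.351), and Ndufaf1 stayed between 11.3 and 14.6 CPM.

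Complex II, succinate dehydrogenase, joins the chain to the tricarboxylic acid cycle. Sdha, its flavoprotein subunit (chr13:74322254-74350280), had 179 CPM in bone and 171 in lung, against 230 and 291 in RM1536 and 394 and 338 in RM1. Its log2 fold change was -0.49 ± 0.22 in RM1536 against RM1 (edgeR adjusted p = 0.255), -0.54 ± 0.28 in bone and -0.61 ± 0.28 in lung against RM1536. Sdhb, the iron-sulfur subunit, had the opposite order, with 109 CPM in bone and 99.1 in lung, against 90.0 and 89.4 in RM1536 and 78.9 and 74.1 in RM1. The membrane anchor gene Sdhd had 88.8 CPM in bone and 101 in lung, against 117 and 119 in RM1536 and 91.8 and 72.3 in RM1 (0.52 ± 0.21 in RM1536 against RM1, edgeR adjusted p = 0.215), and Sdhc lay between 84.5 and 123 CPM.

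The count of Sdha over that of Sdhb needs no scaling, though it compares libraries and not the genes' levels. It was 1.64 in bone and 1.73 in lung, against 2.55 and 3.25 in RM1536 and 4.99 and 4.56 in RM1. The pair was picked after its values were seen, and the groups did not overlap.

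In complex III, which passes electrons on to cytochrome c, the summed level was 738 CPM in bone and 807 in lung, against 841 and 757 in RM1536 and 772 and 751 in RM1. Uqcrfs1, the Rieske iron-sulfur protein, had 70.8 CPM in bone and 70.2 in lung, against 82.7 and 78.3 in RM1536 and 116 and 104 in RM1 (log2 fold change -0.45 ± 0.19 in RM1536 against RM1, edgeR adjusted p = 0.234). Uqcrb, a subunit at the ubiquinone site, had 33.8 CPM in bone and 33.4 in lung, against 49.5 and 41.1 in RM1536 and 70.0 and 62.8 in RM1 (-0.55 ± 0.21, 0.191), and 43.4% of its 50-base windows also occur in another gene. Bone and lung stood below RM1536, and RM1536 below RM1, for both. Uqcrc1, a core subunit, was lower in bone, at 104 CPM, than in RM1536, at 152 and 176 CPM (-0.66 ± 0.25, edgeR adjusted p = 0.460). The small subunit genes Uqcr10 and Uqcr11 were the highest per kb, with 73.5 to 105 CPM and 54.5 to 121 CPM over the 6 libraries.

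The 10 nuclear genes whose libraries stood in 1 order across all groups were picked after their values were seen. Atp5d, Ndufs7 and Sdhb were highest in bone and lung and lowest in RM1, where 3.95% of all genes had that order. Ndufaf4, Ndufaf6, Ndufs4, Ndufs6, Sdha, Uqcrb and Uqcrfs1 had the reverse order, where 4.42% of all genes did. Both orders take RM1536 as the middle group of comparisons that share its libraries, so they are given as a description of levels. The 3 genes of 87 are near the share of all genes, and so say nothing particular of the nuclear genes. Whether the 7 of 87 in the reverse order differ from the share of all genes was not tested.

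**Figure D5:**
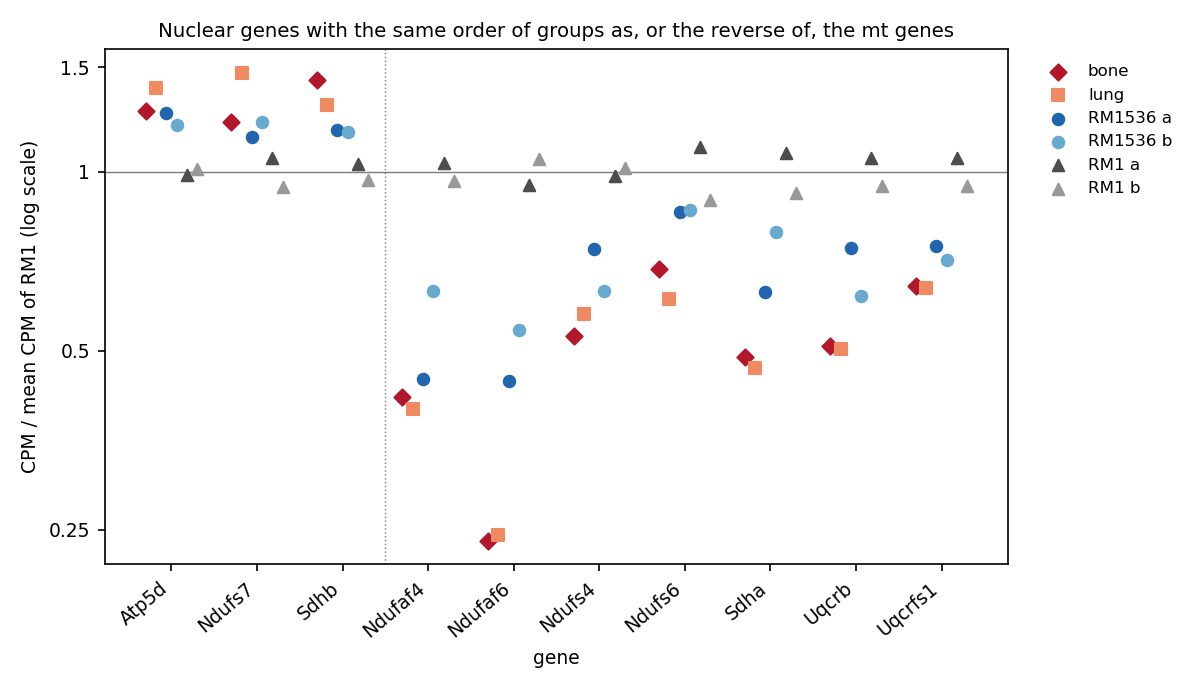
Level in each library over the mean of RM1 a and b (log scale) of 3 nuclear genes with bone and lung above RM1536 and RM1536 above RM1 (left of the dotted line), and of 7 with the reverse order. The genes were chosen for this order; Ndufaf6 has the widest range, with 1.89 and 1.93 CPM in bone and lung and 7.48 and 8.28 in RM1.

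Complex IV, cytochrome c oxidase, hands the electrons to oxygen. Its 16 nuclear genes summed to 1683 CPM in bone and 1810.0 in lung, against 1866 and 1585 in RM1536 and 1628 and 1422 in RM1. Of the 13 tested, 8 had a positive log2 fold change in RM1536 against RM1 (median 0.11). Cox6c had 133 CPM in bone and 138 in lung, against 153 and 131 in RM1536 and 98.8 and 68.8 in RM1, a log2 fold change of 0.76 ± 0.25 in RM1536 against RM1 (edgeR adjusted p = 0.146). Cox7a2 had 74.7 CPM in bone and 82.2 in lung, against 104 and 91.2 in RM1536 and 75.5 and 45.4 in RM1 (0.69 ± 0.29, 0.226), and for both genes RM1536 lay above RM1.

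Several complex IV subunits exist as a broadly expressed form and a form known from heart, muscle, lung or testis. The broad forms made up most counts in every pair. Cox6a1 and Cox8a were the nuclear genes of the complex with the highest level per kb (407 and 317 CPM per kb), and Cox4i1 lay between 181 and 219 CPM. Cox4i2, a form known from lung and induced by low oxygen, had 3 counts in lung, 1 in RM1 a and 0 in the other 4. Cox8b, a muscle form, had 0 in all libraries, and Cox6b2, a testis form, had 3 in RM1536 b and 0 in the others. Cox6b1 lay between 94.5 and 127 CPM, Cox7b between 69.2 and 132, and Cox7a2l between 102 and 212.

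Cox6a2, the heart and muscle form (chr7:128205435-128206387), was the exception. It had 396 counts in lung and 1 in bone, against 24 and 3 in RM1536 a and b, and 1 and 78 in RM1 a and b, so the culture pairs also differed widely. In CPM this was 15.6 in lung and 0.044 in bone, against 0.965 and 0.097 in RM1536 and 0.033 and 2.76 in RM1. It made up 5.53% of the summed Cox6a1 and Cox6a2 counts in lung and between 0.012% and 1.04% in the other libraries. The log2 fold change was 4.91 ± 1.73 in lung against RM1536 (edgeR adjusted p = 0.333) and -8.33 ± 3.05 in bone against lung (0.561). Without a filter on low counts Cox6a2 was called in all 4 comparisons, a setting that called 3.41% to 10.8% of all genes. Every comparison with bone or lung rests on 1 library of that group. Of the 6 cardiac and skeletal muscle markers, 4 had an entry, and 3 of these stayed under 1 CPM in every library. Their sum was 3.07 CPM in bone and 1.30 in lung, against 2.82 and 1.29 in RM1536 and 2.07 and 2.23 in RM1. The part of muscle cells in the Cox6a2 values was not tested.

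Cox7a1, the other heart and muscle form, had 28 counts in bone and 5 in lung, against 25 and 16 in RM1536 and 32 and 28 in RM1. Bone against lung gave a log2 fold change of 2.61 ± 0.88 (edgeR adjusted p = 0.528), so lung was the low library here and the high one for Cox6a2. Ndufa4, named for complex I and now placed in complex IV, had 129 CPM in bone and 115 in lung, against 152 and 132 in RM1536 and 113 and 81.5 in RM1. Its hypoxia-induced relative Ndufa4l2 had at most 0.389 CPM in any library.

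Complex V, the ATP synthase, summed to 4135 CPM in bone and 3950.0 in lung, against 4648 and 4857 in RM1536 and 3974 and 3545 in RM1. Of the 17 genes counted here, Atp5sl included, 14 had a positive log2 fold change in RM1536 against RM1 (median 0.29), and 12 had a negative one in lung against RM1536 (median -0.16), as did 52.0% of all genes. Atp5a1, the alpha subunit (chr18:77773729-77782869), had 792 CPM in bone and 732 in lung, against 1079 and 1295 in RM1536 and 833 and 757 in RM1. RM1536 thus stood above the other 4 libraries, with a log2 fold change of 0.58 ± 0.21 in RM1536 against RM1 (edgeR adjusted p = 0.178), -0.58 ± 0.26 in bone and -0.70 ± 0.27 in lung against RM1536.

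Atp5b, the catalytic beta subunit, was the highest of the complex per kb, with 1282 CPM in bone and 1205 in lung, against 1385 and 1584 in RM1536 and 1262 and 1259 in RM1. Its log2 fold change was 0.24 ± 0.20 in RM1536 against RM1 and -0.21 ± 0.25 in bone and -0.30 ± 0.25 in lung against RM1536. Atp5k, the small subunit e, had 88.5 CPM in bone and 70.4 in lung, against 98.9 and 76.8 in RM1536 and 65.1 and 35.1 in RM1 (0.81 ± 0.33, edgeR adjusted p = 0.221).

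Atp5g1, Atp5g2 and Atp5g3 code for the same mature c subunit of the membrane ring and differ in their import sequences. Atp5g2 made up 44.9% of their summed counts in bone and 53.2% in lung, against 44.0% and 42.7% in RM1536 and 44.7% and 46.9% in RM1. Atp5g3 made up 36.6% in bone and 27.9% in lung, against 35.8% and 38.6% in RM1536 and 36.9% and 35.1% in RM1. Lung thus stood apart from the other 5 libraries in both shares. The log2 fold change of Atp5g2 in lung against RM1536 was 0.38 ± 0.24 and that of Atp5g3 -0.33 ± 0.26, with edgeR adjusted p of 0.492 and 0.583, and Atp5g1 lay between 90.9 and 146 CPM.

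Promoter sequences from RefSeq (GRCm38.p6; 250 bases before the start to 50 after) were found for 75 of the 90 nuclear genes that are not pseudogenes. The letters GCGCANGCG, a form of the core of the site known for the factor NRF1, were searched on both strands and occurred in 22 of the 75 (29.3%), against 1901 of 27025 genes with a promoter (7.03%). AANATGGCG, known for YY1, occurred in 11 (14.7%, against 2.76% of all genes), and CCGGAAGT, known for ETS factors such as GABP, in 5 (6.67%, against 4.31%). A gene counted where any of its listed starts held the letters. The 27025 genes were not limited to expressed genes and were not matched for base composition. The shares therefore do not show whether the letters are particular to these genes. A match is only a string of letters in this window. The promoters of Cox6a1 and Sdha are shown with the NRF1 letters on either strand in capitals. Matches that overlap on the 2 strands are joined. Cox6a1, the highest nuclear gene per kb of joined exons, had 3 matches in 2 stretches. Sdha, the complex II gene with the highest such level in RM1, had 3 matches in 3 stretches. The Cox6a1 promoter is chr5:115348909-115349208 and the Sdha promoter is chr13:74350191-74350490, both on the minus strand.
Cox6a1 promoter: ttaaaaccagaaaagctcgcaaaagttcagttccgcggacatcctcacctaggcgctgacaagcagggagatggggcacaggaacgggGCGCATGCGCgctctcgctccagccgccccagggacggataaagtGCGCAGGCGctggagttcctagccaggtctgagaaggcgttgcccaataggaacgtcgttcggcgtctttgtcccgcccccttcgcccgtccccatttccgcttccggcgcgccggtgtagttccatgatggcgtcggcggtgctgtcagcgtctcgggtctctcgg
Sdha promoter: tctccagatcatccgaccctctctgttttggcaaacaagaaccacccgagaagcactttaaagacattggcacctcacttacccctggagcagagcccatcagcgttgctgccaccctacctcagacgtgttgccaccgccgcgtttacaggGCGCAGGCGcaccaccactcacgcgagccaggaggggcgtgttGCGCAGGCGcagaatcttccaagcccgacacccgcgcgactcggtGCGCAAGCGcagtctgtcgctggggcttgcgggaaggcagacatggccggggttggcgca

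The genes around the chain were taken as 13 further lists with 174 tested genes. In RM1536 against RM1, edgeR called 1 of the 174 higher, the mitochondrial rRNA gene mt-Rnr2, and 0 lower, against 2.1% and 3.54% of all genes. The mt-Rnr2 call (adjusted p = 0.0490) was lost under 6 of 14 alternatives, among them leaving out any 1 culture library (0.0694 to 0.218). It called 0 in each of the other 3 comparisons. The median log2 fold change in RM1536 against RM1 was 0.20 for 76 mitochondrial ribosomal protein genes, 0.32 for 19 genes of mitochondrial transcription, replication and RNA stability, and 0.02 for 12 genes of the tricarboxylic acid cycle. It was 0.12 for 12 genes of the outer membrane and import, 0.03 for 9 nuclear regulators, 0.11 for 18 complex IV assembly genes, -0.06 for 8 complex I assembly genes outside Ndufaf, 0.15 for 6 of complex III, 0.18 for 4 of complex II and 0.24 for 5 further complex V genes. The mitochondrial ribosomal protein genes had medians of -0.09 in bone and -0.11 in lung against RM1536.

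Cyc1, the cytochrome c1 subunit of complex III that the symbol rule leaves out, had 105 CPM in bone and 119 in lung, against 117 and 155 in RM1536 and 87.4 and 96.5 in RM1 (0.56 ± 0.22, edgeR adjusted p = 0.208). Cycs, the mobile electron carrier cytochrome c, had 144 CPM in bone and 142 in lung, against 201 and 213 in RM1536 and 195 and 209 in RM1. Bone and lung thus lay below all RM1536 and RM1 libraries. The factor genes Nrf1, Gabpa and Yy1 had log2 fold changes of 0.03, -0.35 and -0.06 in RM1536 against RM1, none of them called. Ppargc1a, a coactivator of mitochondrial genes, had 0 counts in bone and in lung, against 61 and 18 in RM1536 and 17 and 13 in RM1. Set against a floor of 3 counts per library, this is at least 11.5-fold lower in bone and 12.9-fold lower in lung than the mean of RM1536 (edgeR adjusted p = 0.264 and 0.297). Most of that mean came from RM1536 a, and without it the bounds were 4.41-fold in bone and 4.94-fold in lung. It was named after its values were seen.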

How the data were processed

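RNA of 6 mouse libraries was counted per gene. The deposited table holds raw counts; GRCm38, TopHat2 2.1.10, HTSeq and edgeR are named in the submitters' processing notes without their roles. The aligner's setting for reads with several places, the strand setting and the selection of poly(A) RNA are not stated in the labels or notes. An entry with no name (0.00626% to 0.0083% of a library) was left out. Counts were fitted in R 4.3.3 with edgeR 4.0.16 (TMM, filterByExpr by group, quasi-likelihood test, 6 libraries, 4 groups; biological coefficient of variation 0.269, residual degrees of freedom 2), and steps were tested on simulated data. Each SE is the log2 fold change over the root of F. DESeq2 1.42.0 and limma 3.58.1 were alternatives. Normalization factors were 0.942 to 1.03, and 3 counts equal 0.0971 to 0.132 CPM. The duplicates differed beyond counting noise (chi-square per degree of freedom 89.9 in RM1, 91.1 in RM1536). Exon lengths and transcripts are from GENCODE M21 (GRCm38), matched for all 105 genes, 1 by an older symbol. A 50-base window counted as repeated when it occurred exactly in another gene's transcript.

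The genes and lists were chosen with earlier results of these data known. Named genes were all mt genes, all called genes, the isoform families, genes with at most 3 counts, and per nuclear group the 2 highest per kb and the 2 with the largest change in RM1536 against RM1 (mean CPM at least 5). Genes named outside this rule (the ordered genes, list genes, and genes at an unadjusted p under 0.05) were named after their values were seen. Some genes that this rule or a marker list takes in are not reported here.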

Additional observations from a re-analysis of the deposited data

How the results depend on the processing

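No gene of the chain was called in the edgeR fit as reported, and none was called with DESeq2 size factors, total counts, TMM without mt genes, a stricter filter, limma-voom or the 4 culture libraries alone. Leaving out each culture library in turn gave 0 in every comparison. Without a filter on low counts edgeR called 10 in RM1536 against RM1, 1 in bone against RM1536, 3 in lung against RM1536 and 1 in bone against lung, while calls among all genes went to 2394, 859, 1299 and 754. DESeq2 called 5 in RM1536 against RM1, and 0 in the other 3, with 1471 calls among all genes. The cause was not tested.

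The replicate letters did not pair the libraries (correlation of the deviations of RM1 and RM1536 -0.464). With the replicate block on the 4 culture libraries 0 of 98 were called, where 295 of all 12964 genes (2.28%) were. Without the block, 836 of all genes (6.45%) were called. The crossed pairing, added after seeing the data, called 18 of 98, where it called 3163 of all genes (24.4%). That count did not exceed the share of all genes. The block cannot move the log2 difference of the mt to nuclear ratio, 0.52, since with 2 libraries a group the mean of paired differences equals the difference of means.

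The median log2 fold change of the nuclear genes in lung against RM1536 was -0.18 with total counts, where the median of all genes was -0.15, and 0.054 without RM1536 a, so its sign rests on that library; leaving out single culture libraries gave -0.12 to 0.054. In bone against RM1536 it was between -0.14 and 0.00. The median of the mt genes kept its sign in all settings run, with 0.52 to 1.29 in RM1536 against RM1 when libraries were left out. Of 2237 refitted fold changes of named genes and the rRNAs, 34 passed the threshold under an alternative, 61 changed sign while uncalled, and the sign of a called value never turned.

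The log2 mt to nuclear ratio averaged over genes gave 0.51 in bone and 0.71 in lung above RM1536 and -0.19 in bone against lung. Without mt-Co1 these were 0.85, 1.03 and -0.19, and without mt genes that have copies, chosen after seeing the data, 0.85 and 1.00 (bone and lung). RM1536 against RM1 ranged from 0.17 to 0.86 when libraries were left out.

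Limits: bone and lung are 1 library each from 1 mouse, grown again in culture, so neither the tissue nor the animal is replicated. RM1536 is a pool of clones, and its label, its cloning and its passage cannot be told apart. Over 10% of the 50-base windows of 29 of the 92 nuclear genes also occur in another gene, and how such reads were counted is not known here. RNA levels say nothing of protein or respiration.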

Other observations

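The mitochondrial rRNA genes, which lie upstream of the mt protein genes on the same strand, differed from each other in their order over the libraries. The large rRNA, mt-Rnr2, had 1277 CPM in bone and 1612 in lung, against 1217 and 1133 in RM1536 a and b, and 573 and 376 in RM1 a and b. Its log2 fold change in RM1536 against RM1 was 1.31 ± 0.27 (SE, n = 2 and 2; edgeR adjusted p = 0.0490, where 2.1% of all genes were called higher). The call held under 8 of 14 alternatives, with adjusted p between 9.58e-06 and 0.218; it was lost with a stricter filter (0.0613), with the replicate block (0.0909) and without any 1 culture library (0.0694 and 0.218 when RM1 a or RM1 b was dropped, 0.116 and 0.121 when RM1536 a or RM1536 b was). The small rRNA, mt-Rnr1, had 241 CPM in bone and 199 in lung, against 371 and 233 in RM1536 and 370.0 and 448 in RM1 (-0.44 ± 0.28, edgeR adjusted p = 0.412). The count of mt-Rnr1 over mt-Rnr2 was 0.189 in bone and 0.124 in lung, against 0.304 and 0.206 in RM1536 and 0.645 and 1.19 in RM1. The groups did not overlap, and RM1 b, the library with the lowest mt to nuclear ratio, was the highest here. How rRNA was removed or poly(A) RNA selected was not stated, and the part of that step was not tested.

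The proline tRNA gene mt-Tp, on the opposite strand, lay between 7.18 and 10.5 CPM in the 6 libraries, with a log2 fold change of -0.02 ± 0.31 in RM1536 against RM1. The mt gene with the same strand, mt-Nd6, had 0.64 ± 0.37 in that comparison (edgeR adjusted p = 0.361).

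Ppargc1b, the relative of Ppargc1a, had 5.00 CPM in bone and 2.45 in lung, against 4.59 and 11.5 in RM1536 and 1.70 and 3.29 in RM1, so RM1536 lay above RM1, with bone inside the RM1536 range and lung inside the RM1 range. Its log2 fold change was 1.69 ± 0.57 in RM1536 against RM1, which was not called. It was named after its values were seen.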
